A study of Mus musculus with 6 samples.

Results

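The genes described here are 31 genes of cholesterol and fatty acid synthesis, chosen by symbol for what they encode. They come from 24459 genes listed, some without a count, for the tissue around a brain haemorrhage in mice. The 31 comprise 18 enzymes of the route to cholesterol, 5 genes of its control by the SREBP proteins, 7 genes of fatty acid synthesis and Stard4, which encodes a carrier of cholesterol between membranes. The tissue was perihematomal brain, labelled WT, from mice with an intracerebral haemorrhage (ICH, bleeding into the brain), taken at day 5. One group of 3 libraries came from mice that received TEPP-46 over consecutive days following the haemorrhage, and the other group of 3 libraries from mice that received the vehicle in the same way. TEPP-46 is an activator of PKM2, an isoform of the glycolytic enzyme pyruvate kinase. The labels give no age, sex or strain. They also do not say whether each library is a separate animal, so a p-value here reflects the spread between libraries, which may be technical. All 6 libraries are of tissue with a haemorrhage, so no value here is of uninjured brain.

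Cholesterol is made in the brain itself, since the sterol in blood lipoproteins hardly crosses the blood-brain barrier, and most of it ends up in myelin. Acetyl-CoA is turned into mevalonate and isoprene units, these are joined to squalene, and squalene is closed into a ring and trimmed to cholesterol. SREBP proteins are transcription factors held in the membrane of the endoplasmic reticulum by the INSIG proteins while sterol is plentiful; when sterol is scarce, SCAP escorts them to the Golgi, where they are cut free to switch on both sterol and fatty acid genes. ACLY supplies the acetyl-CoA for both routes from citrate, a product of the pathway that pyruvate feeds.

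RNA was sequenced as PCR-amplified cDNA on a nanopore instrument, and the deposited tables hold raw counts per gene and per isoform. The 6 libraries held between 5286426 and 6025064 counts and between 18429 and 18985 genes with a count. Levels are given as CPM, the raw count scaled by the total of the library, which is not divided by gene length, so levels are not compared between genes. The column headings T1, T2 and T3 name the TEPP-46 libraries and C1, C2 and C4 the vehicle libraries. Marker genes of neurons, astrocytes, oligodendrocytes, microglia, vessels and blood were all present, as the label of the tissue implies, but single libraries stood apart. Summed myelin markers were at 15572, 13380.0 and 14561 CPM in T1, T2 and T3, against 13858, 13640.1 and 5455 CPM in C1, C2 and C4. Summed markers of microglia and macrophages were at 1309, 3031 and 3942 CPM in T1, T2 and T3, against 1159, 6323 and 720.1 CPM in C1, C2 and C4. Choroid plexus markers summed to 3209, 1812 and 3223 CPM in T1, T2 and T3, against 4112, 6.49 and 17.2 CPM in C1, C2 and C4. C4 was thus low in myelin and microglial transcripts, C2 high in microglial ones, and both nearly without choroid plexus. Of all markers read, Folr1, Aqp1 and Otx2 of the choroid plexus and Alas2 of blood were at 0 in a library.

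None of the 31 genes passed the test for a difference between TEPP-46 and vehicle. All 31 were counted well enough to be tested, with 18 to 1904 counts per library, and none had an adjusted p under 0.05 in the quasi-likelihood test of edgeR, adjusted by Benjamini-Hochberg over the 14441 genes tested. The smallest adjusted p among them was 0.838. No gene of the whole table passed either (0%), and the smallest adjusted p there was 0.380. At an unadjusted p under 0.05 there was 1 of the 31 genes, Acly, which was higher with TEPP-46, against 5.93% of all tested genes, 1.88% higher and 4.05% lower. The CPM ranges of the groups did not overlap for 4 of the 31, Acly, Acaca, Insig1 and Sqle, against 11.4% of all tested genes. DESeq2, which called 84 of the 13597 genes it gave an adjusted p for (0.618%), called none of the 31. The authors' deposited table lists 225 of 15896 genes as up or down (1.42%) and none of the 31, and its smallest p for them is 0.0854, for Acly.

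The log2 fold changes of the 31 genes, TEPP-46 over vehicle, lay between -0.34 for Insig1 and 0.34 for Srebf1, with a median of -0.049, against a median of 0.0068 over all tested genes. Of the 31 genes, 18 had a fold change below 0 and 13 above it, while 48.9% of all tested genes were below 0 and 51.1% above. For 14 of the 31 the 95% interval of the fold change stayed within 1.5-fold in either direction, and for 30 of the 31 it stayed within 2-fold. Srebf1 was the exception. Differences inside these intervals were not detectable with this depth and spread. Larger ones could be missed too. In simulated counts over all genes, 41.6% of true log2 fold changes of 1 in either direction were called, and 98.9% of those of 2.

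**Figure D1:**
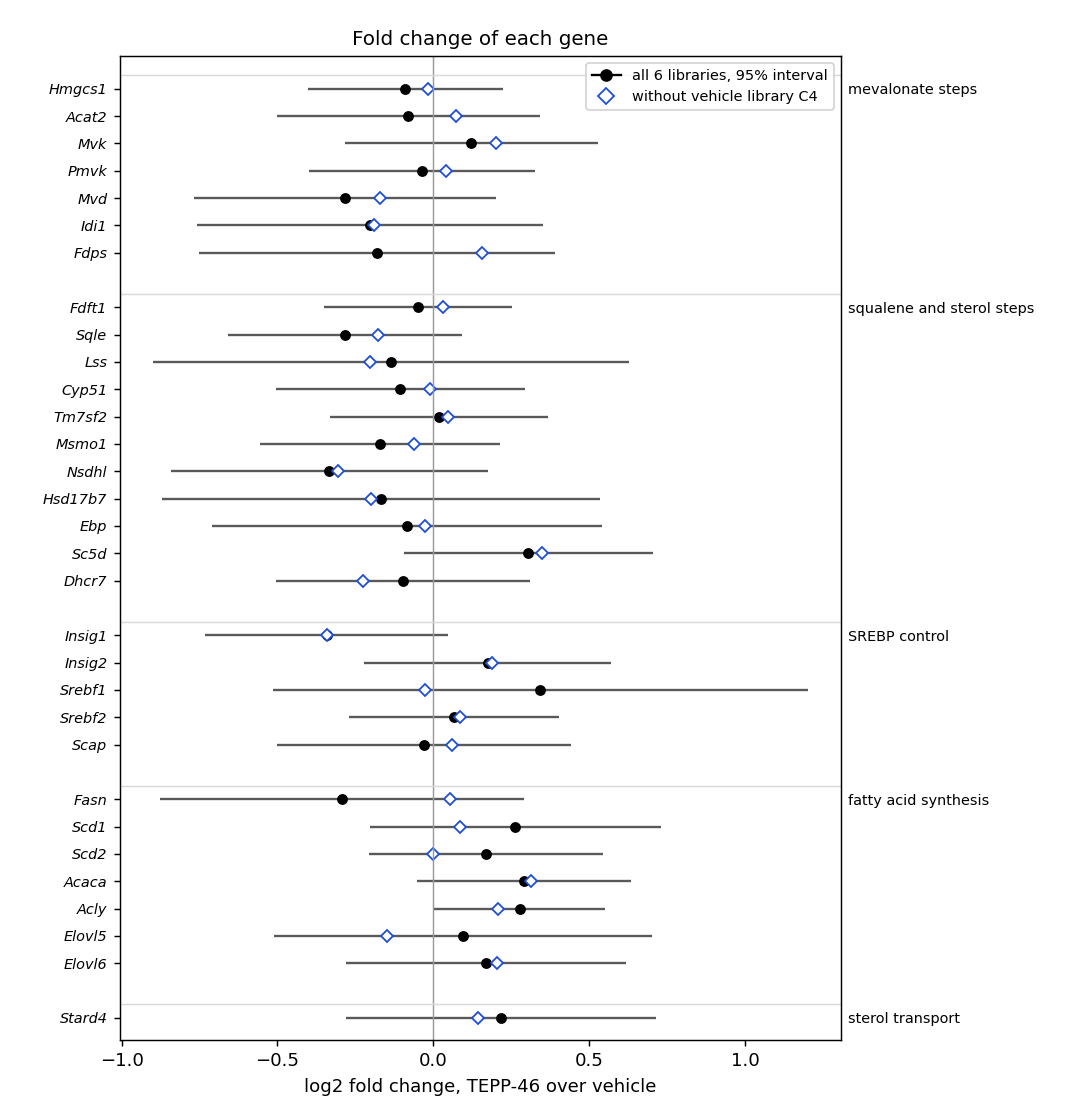
Log2 fold change of each gene, TEPP-46 over vehicle, with its 95% interval from edgeR (black), and the fold change without vehicle library C4 (open diamonds). The interval of Acly alone leaves out 0, by a narrow margin, and 9 genes lie on the other side of 0 without C4, among them Srebf1, Fasn and Fdps.

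The mevalonate steps had fold changes below 0 in 6 of 7 genes, with a median of -0.089. Hmgcs1, which encodes the synthase that condenses acetyl units into HMG-CoA, was at 226, 204 and 174 CPM in T1, T2 and T3, against 219, 186 and 233 CPM in C1, C2 and C4. The groups overlapped, and both held a library near the top and one near the bottom of the range (log2 fold change -0.089 ± 0.14 SE, edgeR adjusted p = 0.993). The promoter of Hmgcs1 is shown because it was the single one of the 25 genes with a RefSeq window that carried the full sterol regulatory element TCACNCCAC, the letters that SREBP proteins are known to bind. The window runs from 250 bases before to 50 after the start, chr13:119690101-119690400 on the plus strand of GRCm38.p6, and its capitals mark the core CACNCCA, which lies inside the full element, and the NF-Y box CCAAT, on either strand.
Hmgcs1: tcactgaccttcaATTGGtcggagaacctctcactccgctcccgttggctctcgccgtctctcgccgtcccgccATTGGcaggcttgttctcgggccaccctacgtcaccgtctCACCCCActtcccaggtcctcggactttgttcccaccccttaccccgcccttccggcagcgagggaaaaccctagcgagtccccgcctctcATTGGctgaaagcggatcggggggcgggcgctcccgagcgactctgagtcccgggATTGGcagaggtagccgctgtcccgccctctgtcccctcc

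Fdps, encoding farnesyl diphosphate synthase, was at 112, 81.8 and 78.0 CPM in T1, T2 and T3, against 75.8, 85.4 and 144 CPM in C1, C2 and C4. T1 and C4 were the high libraries of their groups, and the other 4 lay close together. Its log2 fold change was -0.18 ± 0.25 SE (edgeR adjusted p = 0.993), and 0.16 without C4. The other 5 genes of these steps, Acat2, Mvk, Pmvk, Mvd and Idi1, had fold changes between -0.28 for Mvd, the decarboxylase that makes isopentenyl diphosphate, and 0.12 for Mvk, mevalonate kinase. In each of the 5 the groups overlapped.

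The squalene and sterol steps had fold changes below 0 in 9 of 11 genes, with a median of -0.11. Sqle, which encodes squalene epoxidase, a rate-limiting enzyme of the later route, was at 23.6, 24.7 and 23.0 CPM in T1, T2 and T3, against 27.5, 25.8 and 32.7 CPM in C1, C2 and C4. All 3 TEPP-46 libraries lay below all 3 vehicle libraries, though T2 and C2 were close. The mean was 23.8 ± 0.883 CPM with TEPP-46 and 28.7 ± 3.61 CPM with vehicle (SD, n = 3 each). On the log2 scale the difference was -0.28 ± 0.17 SE (edgeR adjusted p = 0.932), and -0.18 without C4. Groups that do not overlap with TEPP-46 lower were also seen in 5.76% of all tested genes, and in 1 of these 11.

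Fdft1, encoding squalene synthase, was at 85.5, 79.7 and 80.1 CPM in T1, T2 and T3, against 86.0, 72.8 and 92.9 CPM in C1, C2 and C4. The TEPP-46 libraries lay inside the range of the vehicle libraries, at a log2 fold change of -0.049 ± 0.13 SE. Msmo1, a demethylase of the sterol ring, was at 86.0, 71.0 and 67.6 CPM in T1, T2 and T3, against 89.5, 65.8 and 95.7 CPM in C1, C2 and C4, again with overlap (-0.17 ± 0.17 SE, and -0.061 without C4). Sc5d, which puts a double bond into the ring and was named after its values were seen, had the highest fold change of the 18 enzymes, at 46.6, 34.5 and 40.1 CPM in T1, T2 and T3, against 36.1, 27.0 and 34.2 CPM in C1, C2 and C4. Of the TEPP-46 libraries, T2 alone lay within the vehicle range (0.30 ± 0.18 SE, edgeR adjusted p = 0.929).

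The remaining 7 genes of these steps, Lss, Cyp51, Tm7sf2, Nsdhl, Hsd17b7, Ebp and Dhcr7, had log2 fold changes between -0.33 for Nsdhl, a sterol dehydrogenase, and 0.019 for Tm7sf2, a sterol reductase, and their groups overlapped. Lss, encoding the cyclase that forms lanosterol, had among the lowest counts, 28, 29 and 28 counts in T1, T2 and T3, against 43, 20 and 26 counts in C1, C2 and C4. Its log2 fold change was -0.14, and 0.24 without C1. The count of Tm7sf2 is in part that of another gene. Of its counts, 578 of 1270 (45.5%) belong to a transcript (ENSMUST00000025711) that GENCODE M21 assigns to the neighbouring gene Vps51 on chromosome 19, 6067842 to 6077231. Without it Tm7sf2 had 131, 111 and 117 counts in T1, T2 and T3, against 129, 80 and 124 counts in C1, C2 and C4. The groups overlapped as before.

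The 18 enzymes of both stages had a median log2 fold change of -0.10, and 15 of them lay below 0. Without C4 there were 11 of 18 below 0, and leaving out any other single library left 13 to 16. Their summed level was 844, 742 and 702 CPM in T1, T2 and T3, against 801, 702 and 908 CPM in C1, C2 and C4, so the groups overlapped. In C4 the level was above the mean of C1 and C2 in 15 of the 18 enzymes. The same order of libraries, C4, T1, C1, T2, T3 and C2 from high to low, was found for the summed neuron markers, which were at 7183, 6042 and 5524 CPM in T1, T2 and T3, against 6634, 5464 and 7427 CPM in C1, C2 and C4. Microglial and macrophage markers, given above, ran nearly the other way, with C2, T3 and T2 highest and C4 lowest. In C4 the neuron marker Nrgn alone was at 3775 CPM, against 2927 and 2683 CPM in C1 and C2 and 2831 CPM in T1. Without Nrgn, T1 was the highest library of the neuron sum and C4 lay below C1 too, so the order was no longer that of the enzymes. Relative to the mean of C1 and C2, Camk2a (log2 -0.31) and Tubb3 (-0.016) were lower in C4, and the other neuron markers higher. These lists were set side by side after their values were seen, and the part of cell composition in the enzyme levels was not tested. In whole tissue, fewer cells of a type and less RNA per cell cannot be told apart.

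**Figure D2:**
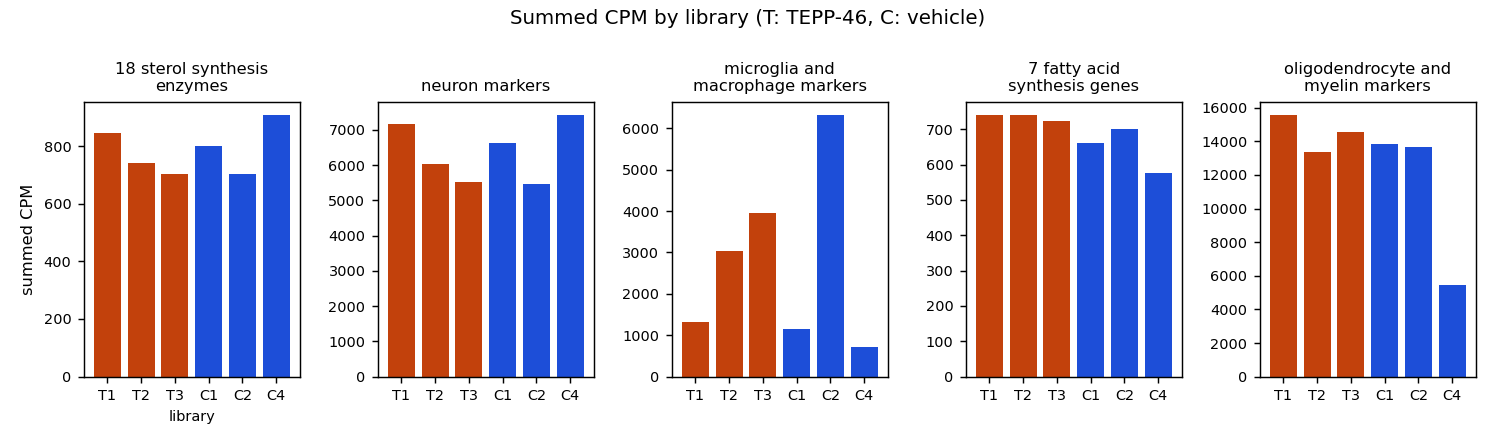
Summed CPM of 5 gene lists in each library, TEPP-46 libraries (T, orange) left of vehicle libraries (C, blue), each panel with its own axis from 0. The sterol enzymes and the neuron markers share their order, with C4 and T1 highest and C2 lowest, while the fatty acid genes are lowest in C4, as are the myelin markers. The place of C4 at the top of the neuron sum, and so the shared order, rests on Nrgn.

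Of the 5 genes of SREBP control, Insig1 was the one whose groups did not overlap. Insig1 encodes the anchor that holds the SREBP complex in the endoplasmic reticulum and is itself a target of SREBP. It was at 24.1, 32.2 and 33.9 CPM in T1, T2 and T3, against 39.0, 36.5 and 37.8 CPM in C1, C2 and C4. All 3 TEPP-46 libraries lay below all 3 vehicle libraries, with T1 the farthest from them. The mean was 30.1 ± 5.26 CPM with TEPP-46 and 37.8 ± 1.23 CPM with vehicle (SD, n = 3 each). The log2 fold change was -0.34 (95% interval -0.73 to 0.046, edgeR adjusted p = 0.884). Without T1 it was -0.20. Its promoter window is shown as that of the gene with the lowest fold change. It lies at chr5:28071162-28071461, plus strand, and holds 1 core element, 1 CCAAT box and no full sterol regulatory element, with capitals as before.
Insig1: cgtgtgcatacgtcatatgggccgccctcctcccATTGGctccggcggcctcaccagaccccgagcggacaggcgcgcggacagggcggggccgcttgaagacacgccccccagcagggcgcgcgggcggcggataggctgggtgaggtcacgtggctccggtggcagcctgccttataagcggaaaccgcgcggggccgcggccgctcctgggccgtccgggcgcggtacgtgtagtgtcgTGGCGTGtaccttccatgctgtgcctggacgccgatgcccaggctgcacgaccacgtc

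Insig2, the paralog that encodes a second anchor and is not driven by SREBP in the same way, was at 58.4, 40.6 and 55.4 CPM in T1, T2 and T3, against 50.2, 39.5 and 46.0 CPM in C1, C2 and C4. Its groups overlapped, and its fold change had the other sign from that of Insig1 (0.17 ± 0.18 SE, edgeR adjusted p = 0.985). The difference between the paralogs was not tested. Srebf2, which encodes the SREBP that mainly drives sterol genes, was at 73.2, 72.0 and 59.7 CPM in T1, T2 and T3, against 71.7, 56.3 and 66.4 CPM in C1, C2 and C4. Nothing separated the groups (0.065 ± 0.15 SE). Scap had a log2 fold change of -0.029, likewise with overlap.

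Srebf1, encoding the SREBP that mainly drives fatty acid genes, showed the highest fold change of the 31 genes, and it rested on 1 library. It was at 39.7, 45.7 and 46.4 CPM in T1, T2 and T3, against 40.3, 48.4 and 14.0 CPM in C1, C2 and C4. The level in C4 stood far below the other 5 libraries, which lay together whatever the treatment. The log2 fold change was 0.34 with a 95% interval of -0.51 to 1.202 (edgeR adjusted p = 0.985), -0.028 without C4 and 0.69 without C2. C4 was also the library with the fewest myelin and microglial transcripts, and the part of that in its low Srebf1 was not tested.

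The fatty acid genes had fold changes above 0 in 6 of 7, with a median of 0.17. Acly, the gene of ATP citrate lyase, was at 316, 310.2 and 275 CPM in T1, T2 and T3, against 247, 268 and 222 CPM in C1, C2 and C4. All 3 TEPP-46 libraries lay above all 3 vehicle libraries, with T3 and C2 nearest to each other. The mean was 300.4 ± 22.2 CPM with TEPP-46 and 246 ± 23.4 CPM with vehicle (SD, n = 3 each). This is a log2 fold change of 0.28 with a 95% interval of 0.0012 to 0.55, for which edgeR gave an unadjusted p of 0.0492 and an adjusted p of 0.838. The fold change was 0.21 without C4 and 0.35 without C2. The promoter of Acly (chr11:100527951-100528250, minus strand) is shown as that of the gene with the smallest p. It held no core element and 1 CCAAT box, with capitals as before, and 4 GC boxes GGGCGG that are left in lower case.
Acly: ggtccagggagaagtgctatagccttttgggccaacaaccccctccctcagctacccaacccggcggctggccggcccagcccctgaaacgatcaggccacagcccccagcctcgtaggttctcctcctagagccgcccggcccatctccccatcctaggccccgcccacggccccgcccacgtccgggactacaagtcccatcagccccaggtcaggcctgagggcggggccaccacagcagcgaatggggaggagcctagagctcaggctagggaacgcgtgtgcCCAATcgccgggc

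Acaca, which encodes acetyl-CoA carboxylase and so the first committed step of fatty acid synthesis, was at 31.04, 30.1 and 28.1 CPM in T1, T2 and T3, against 23.6, 23.9 and 24.8 CPM in C1, C2 and C4. The groups did not overlap, and the spread within each was small. The mean was 29.7 ± 1.51 CPM with TEPP-46 and 24.1 ± 0.622 CPM with vehicle (SD, n = 3 each). The log2 fold change was 0.29 ± 0.15 SE (edgeR adjusted p = 0.897) and 0.31 without C4. Acly and Acaca were the 2 of the 31 genes with TEPP-46 above vehicle in every library, where 5.67% of all tested genes were so.

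Fasn, encoding fatty acid synthase, the step after Acaca, was the 1 fatty acid gene with a fold change below 0. It was at 55.8, 69.2 and 47.7 CPM in T1, T2 and T3, against 59.0, 51.2 and 99.7 CPM in C1, C2 and C4. C4 again stood alone, here above the rest (-0.29 ± 0.26 SE, edgeR adjusted p = 0.981), and without it the log2 fold change was 0.054. Fasn and Fdps were thus highest in C4, the library where Srebf1 was lowest; these genes were set side by side after their values were seen.

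The desaturases Scd1 and Scd2, which turn saturated into monounsaturated fatty acids and of which Scd2 is the main one in brain, were lowest in C4, as was Srebf1. Scd2 was at 256, 257 and 288 CPM in T1, T2 and T3, against 258, 273 and 176 CPM in C1, C2 and C4. Scd1 was at 25.4, 23.3 and 25.2 CPM in T1, T2 and T3, against 24.5, 21.6 and 14.9 CPM in C1, C2 and C4. For both, the 5 libraries other than C4 overlapped. The log2 fold change of Scd2 was 0.17 ± 0.17 SE and -0.0012 without C4, and that of Scd1 was 0.26 ± 0.21 SE and 0.086 without C4.

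The elongases Elovl5 and Elovl6, which lengthen polyunsaturated and saturated chains, also overlapped. Elovl5 was at 33.5, 34.7 and 43.0 CPM in T1, T2 and T3, against 33.3, 47.9 and 21.6 CPM in C1, C2 and C4, with a log2 fold change of 0.096 ± 0.27 SE and of -0.15 without C4. Elovl6 was at 21.2, 16.2 and 15.3 CPM in T1, T2 and T3, against 15.2, 15.1 and 16.3 CPM in C1, C2 and C4. T1 alone stood above the other libraries (0.17 ± 0.20 SE). Stard4 was at 11.3, 8.89 and 11.3 CPM in T1, T2 and T3, against 9.74, 9.12 and 7.94 CPM in C1, C2 and C4, with overlap (0.22 ± 0.22 SE, edgeR adjusted p = 0.985).

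**Figure D3:**
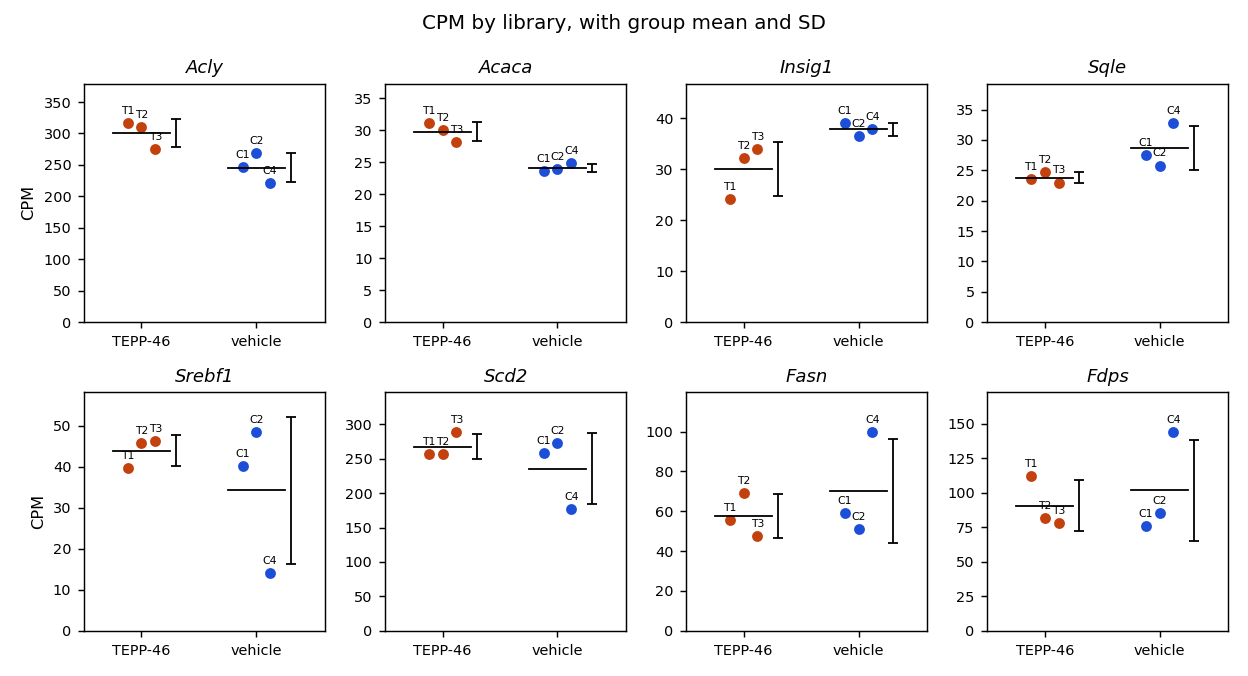
CPM by library for 8 genes, with the group mean (horizontal line) and SD (bracket, n = 3), TEPP-46 left of vehicle, and axes from 0. In the upper row are the 4 genes whose groups do not overlap, Acly and Acaca higher and Insig1 and Sqle lower with TEPP-46; in the lower row are 4 genes, picked after their values were seen, whose difference rests on C4.

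Together the 7 fatty acid genes summed to 739, 741 and 723 CPM in T1, T2 and T3, against 661, 701 and 575 CPM in C1, C2 and C4. The groups did not overlap in this sum, to which Acly and Scd2 contribute most of the counts. Without Acly the groups overlapped, with C2 above T1 and T2. No test was made on the sum of all 7 genes, in which the gap between T3 and C2 was small. Relative to the mean of C1 and C2, C4 had a median log2 difference of -0.22 over the fatty acid genes and of 0.21 over the 18 sterol enzymes. The myelin markers had a median of -1.38 and the microglial and macrophage markers one of -1.65 on the same measure. Summed astrocyte markers, like the fatty acid genes, did not overlap between the groups, at 4776, 4988 and 4590.0 CPM in T1, T2 and T3, against 4185, 4360.1 and 4265 CPM in C1, C2 and C4. Of those 10 markers 1 had groups that did not overlap, near the 11.4% of all tested genes, and none passed. Without Aldoc the astrocyte sums of the groups overlapped, with C2 just above T3. The part of any of these cells in the fatty acid sum was not tested.

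**Figure D4:**
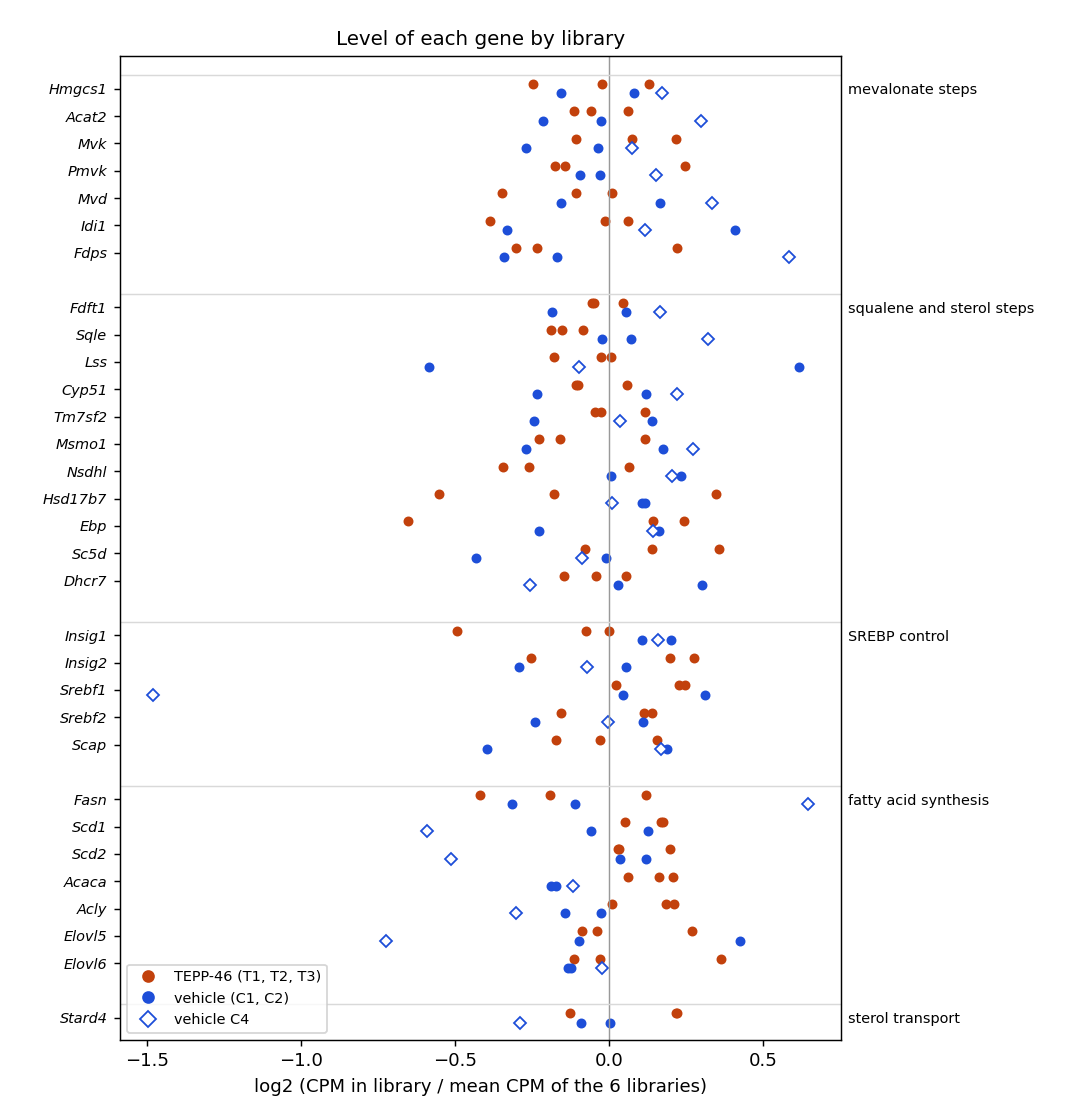
Level of each of the 31 genes in each library, as log2 of its CPM over the mean CPM of the 6 libraries. TEPP-46 libraries are orange, drawn above the vehicle libraries C1 and C2 (blue) and C4 (open diamonds). C4 lies to the right in most sterol genes and in Fasn, and to the left in Srebf1, Scd1, Scd2 and Elovl5.

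Across the 31 genes, T1 and C4 were each the highest library for 9, while C2 was the lowest for 11, C4 for 7 and T3 for 6. Libraries of both treatments therefore stood at both ends. The spread within vehicle, as the coefficient of variation, was larger than that within TEPP-46 for 20 of the 31 genes (64.5%), against 61.1% of all tested genes. The median was 12.4% with TEPP-46 and 14.5% with vehicle over the 31 genes.

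The promoters were searched for the sterol regulatory element, and for CCAAT and GGGCGG, which are not particular to this pathway. RefSeq windows were at hand for 25 of the 31 genes, in 33 windows, and were not for Fdft1, Fdps, Scd1, Scd2, Sqle and Stard4. CCAAT on either strand was in 22 of the 33 windows (66.7%), against 37.4% of all 32851 windows of the same length, and GGGCGG was in 24 of 33 (72.7%), against 35.7%. The core CACNCCA was in 7 of 33 (21.2%), against 18.4%, and the full TCACNCCAC, which contains it, in 1 of 33 (3.03%), against 1.24%. These are counts of letters in a fixed window, without a test, and say nothing about binding.

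At the level of isoforms, the 31 genes had 128 in the deposited table, of which 114 had a count, 67 could be tested and 12 were new, without a reference identifier. New isoforms held 11.1% of the counts. No isoform of the whole table had an edgeR adjusted p under 0.05 (0%), and the smallest adjusted p for these genes was 0.848. At an unadjusted p under 0.05 there was 1 higher isoform, Sc5d-202, and 1 lower, Insig1-201, of the 67, against 5.77% of all 33854 isoforms tested (1.88% higher, 3.9% lower). In CPM, groups did not overlap for 6 of the 67 higher with TEPP-46 (5.73% of all tested isoforms) and for 2 lower (5.18%), 10.9% of all in both directions, and all 8 belong to Acly, Acaca, Sc5d, Insig1 and Sqle.

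Insig1-201, the annotated coding transcript on chromosome 5 from 28071363 to 28078662, had 112, 159 and 153 counts in T1, T2 and T3, against 186, 183 and 170 counts in C1, C2 and C4. Every TEPP-46 library was below every vehicle library (log2 fold change -0.42, edgeR adjusted p = 0.848). The transcript held 77.2%, 87.8% and 85.0% of Insig1 counts in T1, T2 and T3, against 89.4%, 88.0% and 85.0% in C1, C2 and C4. The rest belonged to a new isoform. Sc5d-202, a coding transcript on chromosome 9 from 42254733 to 42264200, had 50, 32 and 32 counts in T1, T2 and T3, against 28, 18 and 24 counts in C1, C2 and C4 (0.61, edgeR adjusted p = 0.863).

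The most abundant isoforms of Acly and Acaca had groups that did not overlap in CPM, which allows for depth, as had the genes. Acly-203 had 736, 659 and 565 counts in T1, T2 and T3, against 514, 604 and 436 counts in C1, C2 and C4. Its groups almost touched, at 106.46 CPM in T3 and 105.95 CPM in C2. Acly-201 and Acly-207 also had groups apart, and the isoforms of Acly were not read as independent. Acaca-202 had 92, 81 and 71 counts in T1, T2 and T3, against 58, 67 and 65 counts in C1, C2 and C4. Its sister Acaca-201 had 89, 81 and 70 counts in T1, T2 and T3, against 55, 67 and 65 counts in C1, C2 and C4. These are so near to those of Acaca-202 that the counts of both were likewise not read as independent. Besides Insig1-201, of the most abundant isoforms of the other genes given by library, that of Sqle had groups apart, with 122, 115 and 107 counts in T1, T2 and T3, against 131, 127 and 155 counts in C1, C2 and C4. Those of Hmgcs1 (a new isoform), Fdps, Fdft1, Msmo1, Insig2, Srebf1, Srebf2, Fasn, Scd1, Scd2, Elovl5, Elovl6 and Stard4 overlapped.

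Srebf1 has transcripts from separate starts, and C4 was the lowest library for both given here. Srebf1-201, which starts at 60220604 on the minus strand of chromosome 11, had 83, 84 and 90 counts in T1, T2 and T3, against 74, 99 and 32 counts in C1, C2 and C4. Srebf1-207, which starts at 60210465, had 20, 22 and 18 counts in T1, T2 and T3, against 16, 20 and 2 counts in C1, C2 and C4. Isoform usage, the proportions within a gene, could be tested in 22 of the 31 genes. None passed with edgeR's diffSpliceDGE, which called 1 of 7639 genes (0.0131%), none had an unadjusted p under 0.05 (0.641% of all genes tested for usage), and the smallest unadjusted p was 0.584.

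Other genes of the same routes were read from 4 lists, and none of their members passed by edgeR or by DESeq2. Of 12 tested genes of other sterol and isoprenoid synthesis, 7 had a fold change above 0 and 5 below, with a median of 0.063. Coq2, which attaches the isoprene tail of coenzyme Q, was at 23.1, 27.6 and 18.3 CPM in T1, T2 and T3, against 47.0, 24.4 and 84.9 CPM in C1, C2 and C4. C2 lay among the TEPP-46 libraries (log2 fold change -1.19 ± 0.40 SE, edgeR adjusted p = 0.699), and without C4 the value was -0.64.

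Of 16 tested genes of SREBP regulation and sterol uptake, 9 were above 0 and 7 below, with a median of 0.025. Of the genes named here from these lists, the authors' deposited table lists Coq2 as down.

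Of 30 tested genes of other fatty acid synthesis, 12 were above 0 and 18 below, with a median of -0.017. At an unadjusted p under 0.05, 1 gene was higher, against 1.88% of all tested genes, and 4 were lower, against 4.05%. Hsd17b12, a reductase of the chain-lengthening cycle, was at 94.8, 90.2 and 100.1 CPM in T1, T2 and T3, against 77.7, 77.01 and 74.7 CPM in C1, C2 and C4, with no overlap and little spread (0.30 ± 0.12 SE, edgeR adjusted p = 0.772). Hacd2, a dehydratase of the same cycle, was at 36.7, 51.4 and 62.6 CPM in T1, T2 and T3, against 77.3, 80.5 and 64.3 CPM in C1, C2 and C4 (-0.57 ± 0.20 SE, edgeR adjusted p = 0.700). The groups did not overlap here either. Its paralogs Hacd1, Hacd3 and Hacd4 had log2 fold changes of -0.011, 0.059 and -0.30, so this step held both signs. Hacd3 also had groups that did not overlap, with TEPP-46 higher. The difference in sign between Hsd17b12 and Hacd2 was not tested.

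The other 3 lower genes were Acsl3, a long-chain acyl-CoA synthetase (-0.53), Me1, the malic enzyme that supplies NADPH (-0.43), and Mcat of mitochondrial fatty acid synthesis (-0.998). Mcat had few counts, 7, 10 and 7 in T1, T2 and T3, against 17, 11 and 18 in C1, C2 and C4. The SE of its fold change was 0.41 (edgeR adjusted p = 0.803). In each of these 3 genes all TEPP-46 libraries lay below all vehicle libraries, which is not independent of their choice by p. In this list of 30, groups did not overlap for 2 genes higher and 5 lower, against 5.67% and 5.76% of all tested genes. No test was made over the list. Of 12 tested genes of sterol esterification, turnover and efflux, 7 were above 0 and 5 below, with a median of 0.062. Cyp46a1, the neuronal enzyme that hydroxylates cholesterol for export from the brain, was at 83.5, 119.5 and 114 CPM in T1, T2 and T3, against 118, 137 and 167 CPM in C1, C2 and C4, with overlap (-0.43 ± 0.18 SE, edgeR adjusted p = 0.822).

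Some counts could hold reads of neighbours or copies. Exons of 11 of the 31 genes share 34 to 1124 bases with another gene in GENCODE M21, for 8 of them on the opposite strand, and whether the counting used strand is not given in the sources used here. These 11 include Fdft1, which shares bases with Ctsb, Srebf1 with Rai1, and Scap, Hmgcs1, Idi1, Lss, Cyp51 and Elovl6 with other antisense genes. Acly, Acaca, Insig1 and Sqle, whose groups did not overlap, are not among them. Fdps, Scd2 and Tm7sf2 share bases with a gene on their own strand, as does Srebf1 with Mir6922. Acat2 has a close paralog in the mouse, Acat3, and how reads with more than 1 match were counted is likewise not known.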

How the data were processed

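Perihematomal brain RNA of 3 TEPP-46 and 3 vehicle samples was sequenced as nanopore cDNA, per the labels' protocols. The authors deposited raw counts per gene and isoform, per the file headers, and p-values, log2 fold changes and calls of their own; DESeq 1.10.1 and build GRCm38 are named in the submitters' processing notes. For aligner, counting tool and strand use, the entry is: not given in the sources used here. Each column's letter gives its group (T, C), while its number names no labelled sample; 12 other per-library columns were not used.

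CPM was computed from the deposited counts. The test for genes and isoforms was that of edgeR 4.0.16 (R 4.3.3; filterByExpr, TMM, robust quasi-likelihood F test, group as the single term, all 6 libraries; called at Benjamini-Hochberg adjusted p under 0.05), and isoform usage with diffSpliceDGE. Standard errors and 95% intervals come from the fold change and its F statistic. The fit was tested on simulated data. Alternatives were DESeq2 1.42.0, other size factors, other low-count filters and leaving out each library.

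The genes and lists were chosen with earlier results of these data known. Values per library are given for genes with unadjusted p under 0.05 or groups that do not overlap, the 2 of each role with the highest mean CPM, and the paralog pairs; other choices are named as made after values were seen. Of the list genes, Faxdc2 and Meg3 are not analysed here, nor are protein sequences, and some single genes of the other lists are not reported here. Promoter windows are those of RefSeq on GRCm38.p6, transcripts those of GENCODE M21, and motifs were searched on both strands. Count depth sets the precision, and intervals cover the spread between these libraries.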

Additional observations from a re-analysis of the deposited data

How the results depend on the processing

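For the 31 genes, calls stayed at 0 under all alternatives, as did those of the other pathway genes and of the isoforms and isoform usage of the 31 genes. Over all genes there were 84 calls with DESeq2 and 0 to 43 with a library left out, 43 without C2. Over all isoforms there were 165 without a low-count filter, 150 with DESeq2 and 0 to 178 with a library left out, 178 without C2 and 1 without C1. The count of the 31 genes at unadjusted p under 0.05 was 1 with scaling by library totals and 0 with RLE size factors, without a filter, with the stricter filter (CPM of 5 in 3 libraries) and with DESeq2; it was 0 to 1 with a library left out. The median log2 fold change was -0.067 to -0.037 under the other settings and -0.096 to 0.032 with a library left out, above 0 without C1 (0.031) and C4 (0.032). The share of windows was 21.2% with the core motif and 3.03% with the full one. Leaving out a library turned 16 of the 31 genes to the other sign at least once. Their log2 fold changes then ran from -0.18 to 0.0077 (Hmgcs1), -0.18 to 0.074 (Acat2), -0.18 to 0.042 (Pmvk), -0.36 to 0.16 (Fdps), -0.13 to 0.032 (Fdft1), -0.37 to 0.24 (Lss), -0.077 to 0.099 (Tm7sf2), -0.44 to 0.015 (Hsd17b7), -0.25 to 0.15 (Ebp), -0.23 to 0.046 (Dhcr7), -0.028 to 0.69 (Srebf1), -0.019 to 0.16 (Srebf2), -0.19 to 0.065 (Scap), -0.47 to 0.054 (Fasn), -0.0012 to 0.30 (Scd2) and -0.15 to 0.43 (Elovl5). Of the 15 others, the value nearest to 0 was 0.031 for Mvk and -0.022 for Idi1 (without C1), -0.17 for Mvd, -0.0099 for Cyp51, -0.061 for Msmo1 and 0.14 for Stard4 (without C4), and 0.19 for Sc5d, 0.075 for Insig2 and 0.010 for Elovl6 (without T1); Sqle, Insig1 and Scd1 are given in the text, and Nsdhl, Acaca and Acly moved by less than 1.5 times. Without T1 Acsl3 was at -0.32 and Cyp46a1 at -0.28. Without C4 9 of the 16 turned, without T3 5, without C1 3, without C2 or T2 2 each and without T1 1. None of the 31 genes changed sign under another scaling, filter or tool, which moved the median of all genes to between -0.0099 and 0.020. The cause was not tested. Isoform usage has no value with DESeq2. No paired analysis was possible because the columns carry no number of the labelled samples.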
